A study of Mus musculus with 9 samples.

Results

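The genes described here encode 7 proteins of touch and acid sensing: the mechanically gated channels Piezo1 and Piezo2, the acid-sensing ion channel subunits Asic1, Asic2, Asic3 and Asic4, and the stomatin-like protein Stoml3. They were chosen by gene symbol among the 21835 genes that had a transcript in the mRNA table. No level entered the rule of choice, but earlier results of these data were known when it was made. Of the 101539 annotated transcripts of that table, 41 belonged to these 7 genes. RNA of the trigeminal ganglion (TG), which holds the cell bodies of the sensory neurons of the face and jaw, was sequenced in 9 libraries of wild-type (WT) male C57BL/6 mice aged 8 weeks. The temporomandibular joint (TMJ) was injected with saline or with complete Freund's adjuvant (CFA), a suspension of killed mycobacteria in oil that causes joint inflammation. Saline replicates 1 to 3 and CFA3D replicates 1 to 3 were labelled as day 3, and CFA6D replicates 4 to 6 as day 6, so that CFA6D was compared with saline of an earlier day and treatment and day cannot be told apart there. Each library pooled unilateral tissue punches of 3 mice, and n = 3 pools per group throughout. All groups had an injected joint, and no uninjected group was analysed here.

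Piezo proteins are large trimeric channels that open when the membrane is stretched or indented. Piezo2 is the channel of light touch and body position sense in sensory neurons, while Piezo1 is best known in endothelial and other non-neuronal cells. Acid-sensing ion channels (ASICs) are trimers of the degenerin and epithelial sodium channel family that pass sodium when the outside of the cell turns acidic, as it does in inflamed joints, and Asic3 in particular is abundant in the sensory neurons of muscle and joints. Stoml3 is a membrane protein that lowers the force needed to open Piezo channels in sensory neurons.

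The deposited levels rested on about 30000000 to 42200000 read pairs per library, as estimated from the step of the lowest values. This is not the number of reads sequenced, which the study reports as higher. All 10 pan-neuronal marker genes were detected, with a summed level between 1674 and 2425 FPKM (fragments per kilobase, a level corrected for transcript length and library size), and no gene of the 12 marker lists was at 0 in every library. Saline replicate 3 and CFA6D replicate 6 stood apart from the other libraries on the main axes of variation. In saline replicate 3 the summed pituitary markers reached 10685 FPKM, against 8.89 and 99.8 in the other saline libraries, 14.2 to 20.8 on CFA3D and 43.0 to 1117 on CFA6D. In CFA6D replicate 6 the summed bone markers reached 209 FPKM, against 29.1 to 73.5 elsewhere. Calls of the channel genes and related genes that were lost without either of these libraries are given both ways. A gene was called changed at an unadjusted p under 0.05 (the cutoff of the study) in limma on log2(FPKM + 0.1), and Benjamini-Hochberg adjusted p-values over all 16110 gene sums tested are given beside it. None of these 16110 gene sums reached an adjusted p under 0.05 in any comparison, and each call below stands at the unadjusted cutoff only.

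The levels of the channel genes spanned 3 orders of magnitude and held the same order in 9 of 9 libraries. FPKM is a level per length, so genes can be set side by side. Asic3 was the highest with a mean of 65.6 FPKM over all libraries, followed by Piezo2 with 50.4, Asic1 with 18.3, Asic2 with 12.3, Piezo1 with 3.39, Asic4 with 0.453 and Stoml3 with 0.0628. The ranges over libraries overlapped between Asic3 and Piezo2, and between Asic4 and Stoml3, and did not overlap between the other neighbours in this order. Asic4 rested on about 15.6 to 163 read pairs per library and Stoml3 on about 1.00 to 11.0, whereas every other channel gene rested on at least 432 read pairs in each library.

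**Figure D1:**
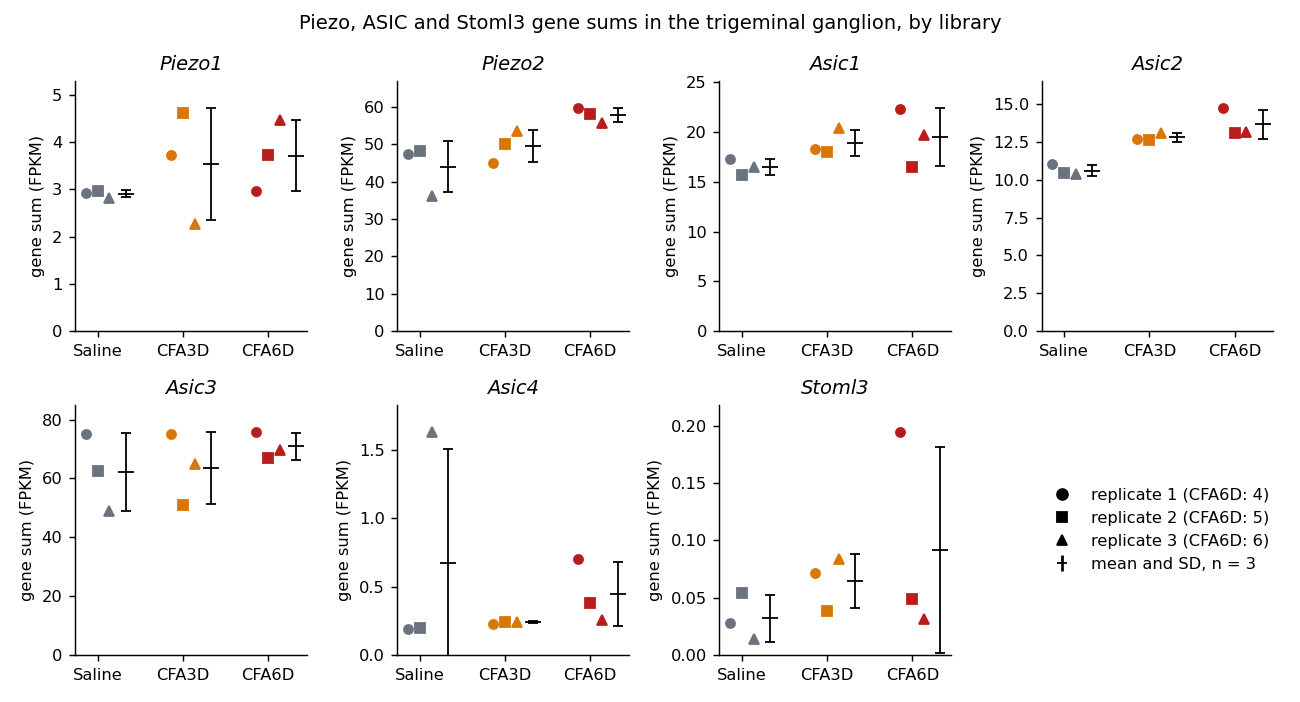
Gene sums in FPKM for the 7 genes in each library, with a linear axis from 0 for each gene. Points are libraries (pools of 3 mice) and the black bars are the mean and SD of each group of 3. Asic2 sat between 10.4 and 11.0 FPKM in saline and between 12.6 and 14.7 in the CFA libraries, Piezo2 was highest in the CFA6D libraries, and the Asic4 level of 1.64 FPKM in saline replicate 3 stood above all others.

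Asic2 was the only one of the 7 gene sums whose 6 CFA libraries all lay above the 3 saline libraries. The share of all gene sums or transcripts that separate in this way is not given here, so this and the separations below are descriptions only. Asic2 subunits join other ASIC subunits and set the acid sensitivity and kinetics of the mixed channels. The gene lies on the reverse strand of chr11:80880169-81968457 (GRCm38). Its level was 11.0, 10.4 and 10.4 FPKM in saline, 12.7, 12.6 and 13.1 on CFA3D, and 14.7, 13.1 and 13.1 on CFA6D. The group means were 10.6 ± 0.356 (SD, n = 3), 12.8 ± 0.279 and 13.6 ± 0.941 FPKM. Asic2 rose by 0.27 on the log2 scale on CFA3D, or 1.20-fold (SE 0.08, limma adjusted p = 0.997), and by 0.36 on CFA6D, or 1.28-fold (SE 0.08, adjusted p = 0.149), and was called on both days. Both CFA days together gave 0.31 (limma adjusted p = 0.290), also called. CFA6D was 0.09 above CFA3D, with a 95% interval from -0.08 to 0.27.

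Piezo2 rose on CFA6D. The gene is on the reverse strand of chromosome 18. Its level was 47.5, 48.3 and 36.1 FPKM in saline, 44.9, 50.1 and 53.6 on CFA3D, and 59.6, 58.2 and 55.8 on CFA6D. Every CFA6D library lay above every saline and CFA3D library, while saline and CFA3D overlapped. The increase on CFA6D was 0.41 on the log2 scale, or 1.33-fold (SE 0.12, 95% interval 0.14 to 0.67, limma adjusted p = 0.240). On CFA3D the difference was 0.18, with an interval from -0.08 to 0.45, and was not called (limma adjusted p = 0.997). CFA6D exceeded CFA3D by 0.23, with an interval from -0.04 to 0.49, and was not called (limma adjusted p = 0.691). Both CFA days together gave 0.29 and a call (limma adjusted p = 0.483). Saline replicate 3 had the lowest Piezo2 level of all libraries. Without it the difference was 0.05 on CFA3D, 0.27 on CFA6D (limma adjusted p = 0.317) and 0.16 over both days (adjusted p = 0.709), so that the call on CFA6D was kept and the call over both days was lost. The 11 markers of mechanoreceptor and proprioceptor neurons, in which Piezo2 is known to act, summed to 358 to 382 FPKM in saline, 321 to 426 on CFA3D and 390 to 474 on CFA6D. The neurofilament gene Nefh, which made up the largest part of the sum, was the 1 marker called higher on CFA6D, and Pvalb, the calcium-binding protein of proprioceptors, was called lower. On CFA3D 0 markers were called higher and 1 lower. Among all gene sums, 4.45% were called on CFA3D and 11.1% on CFA6D. Without Nefh the other 10 markers summed to 165, 163 and 169 FPKM in saline and to 156, 161 and 215 on CFA6D, so that 2 of the 3 CFA6D libraries lay below all saline libraries. The 215 FPKM of CFA6D replicate 6 depended on the marker Spp1. Without Nefh and Spp1 the other 9 markers summed to 129, 130 and 122 FPKM in saline. They summed to 117, 107 and 139 on CFA3D, and to 119, 111 and 127 on CFA6D. The part of these neurons in the Piezo2 result was not tested.

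Across the tested channel genes, 1 of 6 was called on CFA3D (Asic2), when 4.45% of all gene sums were called. On CFA6D 2 of 6 were called (Asic2 and Piezo2), when 11.1% of all were called, and over both CFA days the same 2 of 6 were called, when 8.19% of all were. Between CFA6D and CFA3D none of the 6 was called in limma at an unadjusted p under 0.05, when 7.41% of all gene sums were. Stoml3 was the 1 of 7 genes below the minimum mean of 0.1 FPKM. The median difference of the 6 genes was 0.19 on CFA3D and 0.28 on CFA6D, against 0.05 and 0.03 over all gene sums tested. The comparisons with saline share the same 3 saline libraries.

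The pan-neuronal markers were read beside these results. In bulk tissue, fewer cells of a type and less RNA per cell cannot be told apart. The summed pan-neuronal level was 2143, 1915 and 1674 FPKM in saline, 2142, 2044 and 2353 on CFA3D, and 2425, 2071 and 2135 on CFA6D. The groups overlapped, with saline replicate 1 among the CFA libraries. Of the 10 markers, 2 rose and 0 fell on CFA3D, and 3 rose and 0 fell on CFA6D. Among all 16110 gene sums, 587 were called higher on CFA3D and 1323 on CFA6D. Taken relative to the mean log2 level of these 10 markers in the same library, Asic2 was higher by 0.06 on CFA3D (limma adjusted p = 0.824) and by 0.13 on CFA6D (adjusted p = 0.433). On the same scale Piezo2 differed by -0.03 on CFA3D (limma adjusted p = 0.928) and by 0.18 on CFA6D (adjusted p = 0.332). Both gene calls were therefore lost, on a scale that moved the median of all gene sums from 0.05 to -0.15 on CFA3D and from 0.03 to -0.20 on CFA6D. The part of neuronal content in the Asic2 and Piezo2 results was not otherwise tested.

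**Figure D2:**
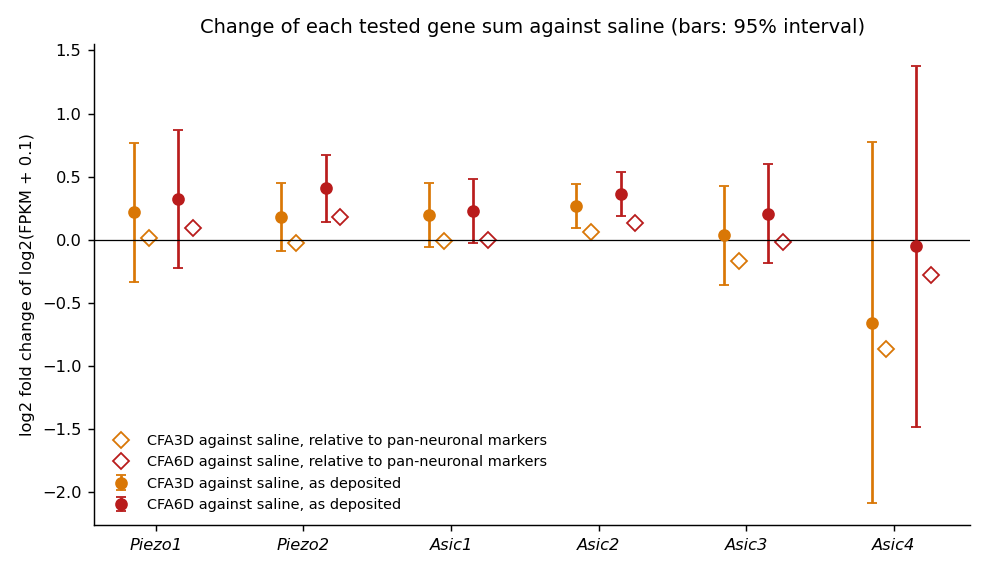
Log2 fold change of log2(FPKM + 0.1) against saline for the 6 tested gene sums. Filled circles with bars are the values as deposited with their 95% interval (orange CFA3D, red CFA6D), and open diamonds are the same differences relative to the pan-neuronal markers. The intervals of Asic2 on both days and of Piezo2 on CFA6D lie above 0, and their diamonds lie closer to 0, at 0.06 and 0.13 for Asic2 and 0.18 for Piezo2.

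The other abundant ASIC subunits did not pass the test. Asic1, on the forward strand of chr15:99670368-99701130, encodes the subunit of the most acid-sensitive ASIC channels. Its level was 17.3, 15.7 and 16.5 FPKM in saline, 18.3, 18.0 and 20.5 on CFA3D, and 22.4, 16.5 and 19.7 on CFA6D. All CFA3D libraries lay above the saline libraries, while CFA6D replicate 5 lay among them. The difference was 0.20 on CFA3D (SE 0.11, limma adjusted p = 0.997) and 0.23 on CFA6D (SE 0.11, adjusted p = 0.501). Without CFA6D replicate 5 it was 0.35 on CFA6D (limma adjusted p = 0.265), which passes the unadjusted cutoff, and without CFA6D replicate 4 it was 0.13 (adjusted p = 0.762), which does not.

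Asic3, on the forward strand of chr5:24413392-24417835, encodes the subunit behind the sustained acid currents of sensory neurons. Its level was 75.2, 62.5 and 48.9 FPKM in saline, 75.1, 50.8 and 64.8 on CFA3D, and 75.9, 66.9 and 69.8 on CFA6D. The 3 groups overlapped, and the spread within saline (62.2 ± 13.2, SD, n = 3) and within CFA3D (63.6 ± 12.2) was wider than the distance between the group means. The difference was 0.04 on CFA3D, with a 95% interval from -0.35 to 0.43, and 0.21 on CFA6D, with an interval from -0.18 to 0.60 (limma adjusted p = 0.703). Leaving out saline replicate 3 gave -0.13 on CFA3D and 0.05 on CFA6D, while leaving out saline replicate 1 gave 0.36 on CFA6D, all with no call. The 9 markers of nociceptors, the neurons of pain, summed to 429 to 608 FPKM in saline, 632 to 692 on CFA3D and 520 to 638 on CFA6D. Of these 9 markers, 3 rose and 0 fell on CFA3D, and 4 rose and 0 fell on CFA6D. Among all 16110 gene sums, 587 were called higher on CFA3D and 1323 on CFA6D. The part of these neurons in the Asic3 values was not tested.

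Asic4 was near the floor in most libraries. It encodes a subunit that forms no acid-gated channel on its own, and lies on the forward strand of chr1:75450436-75474343. Its level was 0.192, 0.198 and 1.64 FPKM in saline, 0.230, 0.244 and 0.240 on CFA3D, and 0.705, 0.379 and 0.253 on CFA6D. Saline replicate 3 was the highest library, followed by CFA6D replicates 4 and 5. The same 3 libraries were the highest in summed pituitary markers, with 10685, 1117 and 411 FPKM, while the other 6 held 8.89 to 99.8. Growth hormone (Gh) alone was at 9120 FPKM in saline replicate 3. The fitted difference of Asic4 was -0.66 on CFA3D (SE 0.64, limma adjusted p = 0.997) and -0.05 on CFA6D (SE 0.64, adjusted p = 0.981). Without saline replicate 3 its sign turned, to 0.20 on CFA3D (limma adjusted p = 0.9996) and 0.80 on CFA6D (adjusted p = 0.457), neither of them called. The part of pituitary tissue in the Asic4 values was not tested further.

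**Figure D3:**
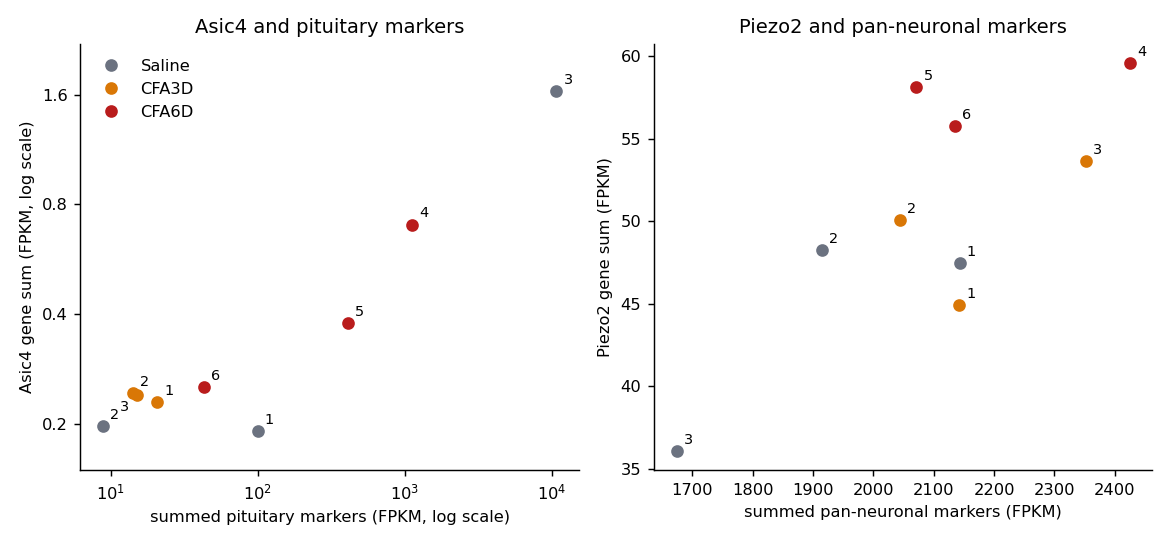
Left, the Asic4 gene sum against the summed level of 7 pituitary markers, both in FPKM on log axes. Right, the Piezo2 gene sum against the summed level of 10 pan-neuronal markers, both in FPKM on linear axes that do not start at 0. Each point is a library with its replicate number. Saline replicate 3 stands at the upper right for Asic4, at 10685 FPKM of pituitary markers, and at the lower left for Piezo2, at 1674 FPKM of pan-neuronal markers.

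Piezo1 differed more between libraries of one CFA group than between groups. The gene lies on the reverse strand of chr8:122481698-122551329. Its level was 2.93, 2.97 and 2.82 FPKM in saline, 3.72, 4.62 and 2.27 on CFA3D, and 2.96, 3.72 and 4.46 on CFA6D. The saline libraries were close together, and the CFA libraries lay on both sides of them. The difference was 0.22 on CFA3D (SE 0.24, limma adjusted p = 0.997) and 0.32 on CFA6D (SE 0.24, adjusted p = 0.675), with no call. Both values moved when single libraries were left out. On CFA3D the difference was 0.50 without CFA3D replicate 3 (limma adjusted p = 0.948), which passes the unadjusted cutoff, and 0.00069 without CFA3D replicate 2 (adjusted p = 0.9999). On CFA6D it was 0.47 without CFA6D replicate 4 (limma adjusted p = 0.628) and 0.19 without CFA6D replicate 6 (adjusted p = 0.875), neither of them called. The 8 endothelial markers summed to 38.8, 30.1 and 39.8 FPKM in saline, 38.8, 51.6 and 30.1 on CFA3D, and 30.4, 42.0 and 34.9 on CFA6D. The order of the libraries was the same for Piezo1 and these markers on CFA3D, was the opposite in saline, and on CFA6D was shared for the lowest library but not for the highest. Their part in the Piezo1 values was not tested. The gene Ctu2, which overlaps the end of Piezo1 on the opposite strand, was at 3.53 to 4.10 FPKM in all libraries.

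Stoml3, on the forward strand of chr3:53488653-53508502, was at most 0.195 FPKM in any library. Its level was 0.0278, 0.0542 and 0.0139 FPKM in saline, 0.0711, 0.0386 and 0.0841 on CFA3D, and 0.195, 0.0485 and 0.0316 on CFA6D. These values correspond to between about 1 and 11 read pairs, and the groups overlapped. No difference was detectable at this depth, and no fold change is given.

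The 41 annotated transcripts of the 7 genes were then read one by one, since a gene sum can hide isoforms that differ. Of these, 33 reached a mean of 0.1 FPKM and were tested among 66562 transcripts. On CFA3D 2 of 33 were called, when 4.68% of all transcripts were, on CFA6D 6 of 33, when 6.81% of all were, and between CFA6D and CFA3D 1 of 33, when 5.42% of all were. All of these calls were toward higher levels on the later day or in CFA. Overlapping isoforms share most of their reads, and how the authors divided them is not given in the sources used here, so values of single isoforms are uncertain where few bases are their own. The libraries were made from total RNA without selection of polyadenylated RNA, and retained-intron transcripts held a large share of some sums. Protein-coding transcripts made up 47.3 to 59.7% of the Piezo1 sum, 53.6 to 61.2% of the Piezo2 sum, 62.6 to 73.2% of the Asic3 sum and 84.5 to 90.1% of the Asic1 sum.

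The ASIC genes Asic1 and Asic2 each make a pair of subunits from alternative first exons, and the starts of these transcripts are printed because the results for Asic1 and Asic2 are given by transcript. The 200 bases before each annotated start are given 5' to 3' on the strand of the gene, read from GRCm38.p6, with each CG dinucleotide in capitals. They lie at chr15:99670168-99670367 for Asic1-201, chr15:99692033-99692232 for Asic1-205, chr11:81153322-81153521 for Asic2-201 and chr11:81968458-81968657 for Asic2-202. The windows of Asic1-205 and Asic2-201 lie inside introns of the longer gene, and no window touches an annotated exon of its gene.
Asic1-201: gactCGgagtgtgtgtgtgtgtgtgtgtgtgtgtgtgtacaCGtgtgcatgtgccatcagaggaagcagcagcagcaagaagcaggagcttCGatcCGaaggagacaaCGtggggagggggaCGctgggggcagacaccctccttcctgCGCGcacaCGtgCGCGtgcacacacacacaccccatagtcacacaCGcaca
Asic1-205: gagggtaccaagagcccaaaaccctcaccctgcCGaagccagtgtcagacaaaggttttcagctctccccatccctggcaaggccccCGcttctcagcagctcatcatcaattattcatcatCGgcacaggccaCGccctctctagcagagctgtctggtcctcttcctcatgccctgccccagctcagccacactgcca
Asic2-201: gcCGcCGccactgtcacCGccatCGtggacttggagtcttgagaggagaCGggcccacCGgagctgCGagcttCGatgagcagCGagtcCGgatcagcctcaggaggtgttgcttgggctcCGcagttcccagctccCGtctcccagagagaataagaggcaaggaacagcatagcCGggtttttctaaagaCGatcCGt
Asic2-202: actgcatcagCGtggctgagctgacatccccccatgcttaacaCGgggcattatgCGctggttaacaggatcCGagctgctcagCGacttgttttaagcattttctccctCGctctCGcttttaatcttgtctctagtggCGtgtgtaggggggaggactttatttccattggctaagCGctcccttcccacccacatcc

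The windows hold 12, 4, 15 and 9 CG dinucleotides in this order, against a median of 6 over 93350 windows of the same length before annotated starts. At least as many were found in 34.7%, 62.7%, 27.2% and 42.4% of those windows. Neither the letters GGGCGG nor the letters TATAAA occur on either strand of the 4 windows, and 33.9% and 8.37% of all windows hold them.

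Asic2-201, which encodes 563 residues (the subunit known as ASIC2b), carried most of the Asic2 sum, with 90.6% in saline, 91.1% on CFA3D and 93.3% on CFA6D. ASIC2b forms no acid-gated current alone and changes the currents of the subunits it joins. Its level was 9.96, 9.44 and 9.41 FPKM in saline, 11.5, 11.4 and 12.0 on CFA3D, and 13.9, 12.2 and 12.2 on CFA6D, so that all CFA libraries lay above all saline libraries. It rose by 0.28 on CFA3D (SE 0.10, limma adjusted p = 0.989) and by 0.40 on CFA6D (SE 0.10, adjusted p = 0.459). Relative to the pan-neuronal markers these differences were 0.07 (limma adjusted p = 0.922) and 0.17 (adjusted p = 0.598), with no call. The CFA3D call was also lost without CFA3D replicate 3 (0.25, limma adjusted p = 0.984).

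Asic2-202, which encodes 512 residues (ASIC2a, an acid-gated subunit of low sensitivity), was singled out after its values were seen. Its level was 1.05, 0.973 and 0.968 FPKM in saline, 1.13, 1.19 and 1.08 on CFA3D, and 0.849, 0.920 and 0.946 on CFA6D. The 3 groups did not overlap, with CFA3D above and CFA6D below saline, but no difference passed the test (0.17 on CFA3D, limma adjusted p = 0.989, and -0.13 on CFA6D, adjusted p = 0.902). The ratio of Asic2-201 to Asic2-202 was 9.63 ± 0.144 in saline, 10.3 ± 0.763 on CFA3D and 14.2 ± 1.92 on CFA6D (SD, n = 3). The ratio lay between 12.9 and 16.4 in the CFA6D libraries and between 9.46 and 11.1 in the other 6. It was computed after the values were seen, and with 3 libraries against 3 the smallest p an exact permutation test could give is 0.1.

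The Asic1 pair was balanced. Asic1-201 (526 residues, ASIC1a) was at 7.26, 6.46 and 7.28 FPKM in saline, 7.34, 7.62 and 10.0 on CFA3D, and 9.51, 7.68 and 8.41 on CFA6D. Asic1-205 (559 residues, ASIC1b, a form found in sensory neurons) was at 7.66, 7.51 and 6.65 FPKM in saline, 8.50, 8.11 and 8.42 on CFA3D, and 10.5, 6.96 and 9.06 on CFA6D. For Asic1-201 all CFA libraries lay above all saline libraries, the closest at 7.34 and 7.28 FPKM. For Asic1-205 this held on CFA3D but not on CFA6D. Neither transcript passed the test on either day. The ratio of Asic1-205 to Asic1-201 was 0.914 to 1.16 in saline, 0.842 to 1.16 on CFA3D and 0.906 to 1.10 on CFA6D, so that the groups overlapped.

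**Figure D4:**
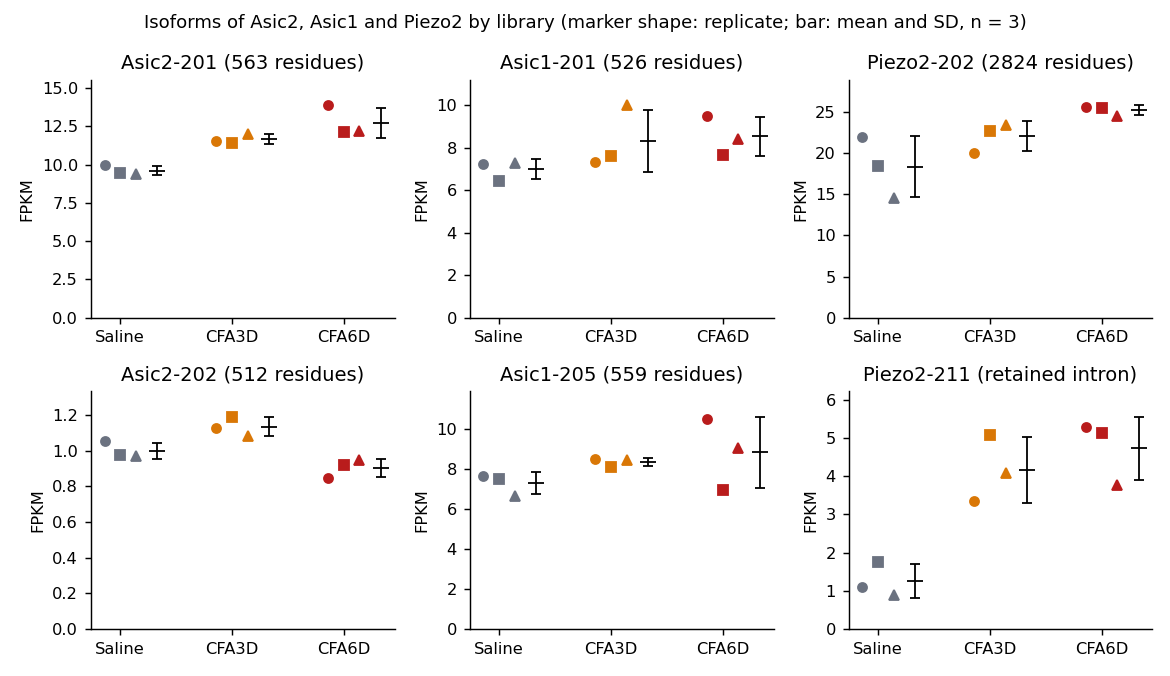
FPKM of 6 transcripts in each library, with linear axes from 0. Points are libraries, marker shapes are replicates, and black bars are the mean and SD of 3. Asic2-201, Piezo2-211 and, narrowly, Asic1-201 are higher in all 6 CFA libraries than in all 3 saline libraries. Asic2-202 is lowest on CFA6D, and Asic1-205 overlaps between saline and CFA6D.

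Of the Piezo2 transcripts, 4 were called on CFA6D. The longest coding one, Piezo2-202 (2824 residues), held 43.4% of the Piezo2 sum in the mean over the 9 libraries. Its level was 22.1, 18.5 and 14.6 FPKM in saline, 20.1, 22.7 and 23.5 on CFA3D, and 25.7, 25.6 and 24.6 on CFA6D. It rose by 0.48 on CFA6D, where all 3 libraries lay above the others (SE 0.15, limma adjusted p = 0.591), and differed by 0.28 on CFA3D with no call (adjusted p = 0.989). The retained-intron transcripts Piezo2-203 and Piezo2-212 rose on CFA6D by 0.50 and 0.46. The call of Piezo2-203 was lost without CFA6D replicate 5 (0.43, limma adjusted p = 0.767), and that of Piezo2-212 without 5 of the 9 libraries in turn, saline replicate 3 among them (0.39, adjusted p = 0.726). Piezo2-207, a retained-intron transcript with 15.5% of the sum, was at 5.72 to 9.31 FPKM in saline and 8.44 to 9.62 on CFA6D and was not called.

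Piezo2-211 had the largest relative change of the 33 tested transcripts on both days. It is annotated as a retained-intron transcript of 889 bases without a coding sequence, of which 71 bases are in no other Piezo2 transcript. Its level was 1.10, 1.76 and 0.898 FPKM in saline, 3.34, 5.07 and 4.07 on CFA3D, and 5.29, 5.13 and 3.78 on CFA6D. All 6 CFA libraries lay above all 3 saline libraries. The increase was 1.68 on CFA3D, or 3.21-fold (SE 0.27, limma adjusted p = 0.296), and 1.87 on CFA6D, or 3.66-fold (SE 0.27, adjusted p = 0.177). Its share of the Piezo2 sum was 2.82% in saline, 8.38% on CFA3D and 8.16% on CFA6D. The ratio of Piezo2-211 to Piezo2-202 was 0.0501 to 0.0949 in saline, 0.166 to 0.223 on CFA3D and 0.154 to 0.206 on CFA6D. Relative to the pan-neuronal markers it remained called on both days, and it remained called without each library in turn.

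Asic3-202 (530 residues) held 63.0% of the Asic3 sum and was at 39.2 ± 11.2 FPKM in saline, 41.2 ± 8.36 on CFA3D and 43.6 ± 1.54 on CFA6D, with no call. The retained-intron transcript Asic3-204 held 25.1%. Its level was 15.3, 16.9 and 13.3 FPKM in saline, 13.9, 12.4 and 17.5 on CFA3D, and 21.5, 18.2 and 18.2 on CFA6D. All CFA6D libraries lay above the other 6, by 0.35 against saline (limma adjusted p = 0.733) and by 0.41 against CFA3D (adjusted p = 0.918). The call against saline was lost relative to the pan-neuronal markers (0.12, limma adjusted p = 0.721), without saline replicate 3 (0.26, adjusted p = 0.761) and without 5 other libraries in turn.

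Most of the Asic4 level of saline replicate 3 was assigned to 1 transcript. Asic4-201 (539 residues) was at 1.50 FPKM in saline replicate 3, 0.636 in CFA6D replicate 4 and 0.101 in CFA6D replicate 5, and at 0 or below 0.01 FPKM in the other 6 libraries. Asic4-202 (520 residues), which starts upstream of it, was at 0.0685 to 0.278 FPKM in all 9 libraries, including 0.140 in saline replicate 3. As assigned, the Asic4 transcript that followed the pituitary markers was not the one detected in every library. Asic4-201 has 60 bases in no other Asic4 transcript, so the division is uncertain. Asic4-202 was lowest in CFA6D replicate 4 (0.0685 FPKM) and saline replicate 3, the libraries where Asic4-201 was highest.

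The Piezo1 sum was divided among Piezo1-209 (2547 residues, 41.2%), the retained-intron transcript Piezo1-202 (21.9%) and Piezo1-201 (2546 residues, 13.8%). The coding pair differ by 3 bases of 1 exon, so their division is uncertain. None was called.

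Genes whose log2 levels ran most like those of the channel genes across the 9 libraries were looked up among 13185 gene sums that averaged 1 FPKM or more, as a description in which all points share libraries and depth. Piezo1 was most like Sfrp2, a secreted Wnt modulator (Pearson r = 0.974), then Zc3h12a (0.963) and Vwf, the von Willebrand factor of endothelial cells (0.961). Asic4 was most like Pou1f1, a transcription factor of pituitary hormone cells (0.981), then Dlk1 (0.977) and Zcchc12 (0.977). Piezo2 was most like Pex5 (0.967), Pld5 (0.954) and Huwe1 (0.953). Asic2 was most like Irgq (0.981), Tnfrsf21 (0.980) and Syngr3 (0.979), and Asic3 was most like Adgrl3 (0.972), Nop14 (0.958) and Prune1 (0.946).

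Other genes of touch and acid sensing were read from 5 lists with 50 genes, of which 47 were tested. None of the 47 was called on CFA3D in limma at an unadjusted p under 0.05, when 4.45% of all gene sums were. On CFA6D 5 were higher and 0 lower, close to the 11.1% called among all gene sums. Over both days 2 were higher and 0 lower, when 8.19% of all were called, and between CFA6D and CFA3D 4 were higher and 2 lower, when 7.41% of all were. Their median difference was 0.11 on each day, against 0.05 and 0.03 over all gene sums.

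Among 21 tested mechanically gated channels and their auxiliary proteins, 4 were higher on CFA6D, when 8.21% of all gene sums were called higher. Tmem63b, of the family of stretch-activated cation channels, went from 32.1 ± 2.76 FPKM in saline to 41.2 ± 3.10 on CFA6D (difference 0.36, limma adjusted p = 0.170), and Tmem63c of the same family rose by 0.28 (adjusted p = 0.373). The Tmem63c call was lost without saline replicate 3 (0.22, limma adjusted p = 0.525) and without 3 other libraries in turn. Lrrc8a, the essential subunit of the volume-regulated anion channel, went from 12.8 ± 1.67 to 18.2 ± 3.38 FPKM (difference 0.49, limma adjusted p = 0.230), with its highest level of 22.1 FPKM in CFA6D replicate 6. Tmem63b and Lrrc8a were the genes called over both days. That call of Lrrc8a was lost without saline replicate 3 (0.23, limma adjusted p = 0.773). It was also lost without saline replicate 1, CFA3D replicate 1 or CFA3D replicate 2. Kcnk4, the mechanically gated potassium channel TRAAK, went from 4.31 ± 1.37 to 6.29 ± 1.07 FPKM (difference 0.58, limma adjusted p = 0.444). Its saline levels were 5.12, 5.09 and 2.73 FPKM, and without saline replicate 3 the difference was 0.28 with no call (limma adjusted p = 0.634). The Kcnk4 call was also lost without CFA3D replicate 1 or 3 and without CFA6D replicate 4 or 5. Anxa6, a regulator of mechanically gated currents, was the highest gene of the list at 104 to 140 FPKM, and its differences were 0.12 and 0.10 with no call. Relative to the pan-neuronal markers none of these 4 genes was called on CFA6D. On that scale 6 other genes of the 5 lists were called, all of them lower, when 19.3% of all gene sums were called and 18.3% were called lower.

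In the other 4 lists 1 gene, Dlg4, was called against saline on CFA6D. Of 4 stomatin family genes, 0 were called against saline, with Stoml1, which binds ASIC1a, at 20.5 to 26.7 FPKM. Of 10 ASIC binding proteins, Dlg4, which encodes the postsynaptic scaffold PSD-95, was higher on CFA6D (24.2 ± 2.51 FPKM in saline and 29.2 ± 1.80 on CFA6D, difference 0.28, limma adjusted p = 0.289). Relative to the pan-neuronal markers Dlg4 was not called on CFA6D. S100a10, which brings ASIC1a to the cell surface, was at 207 to 286 FPKM, and Nedd4l at 27.4 to 39.5 FPKM, both with no call. Of 10 other proton sensors 0 were called. Trpv1, the capsaicin receptor, was at 10.9 ± 1.23 FPKM in saline and 13.3 ± 0.247 on CFA3D (difference 0.29, limma adjusted p = 0.997). The proton-activated chloride channel, listed under its older symbol Tmem206, was at 3.54 to 5.07 FPKM. Of the epithelial sodium channel subunits, 2 were tested, and Scnn1a and Scnn1b both stayed at or below 1.20 FPKM with their highest or second-highest level in saline replicate 3. Scnn1a was 0.98 above saline (limma adjusted p = 0.481, no call) and 1.34 above CFA3D (adjusted p = 0.642, called) on CFA6D. Scnn1b differed from saline by -0.72 on CFA3D and -0.88 on CFA6D, with no call, and its saline levels were 0.227, 0.0735 and 1.20 FPKM.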

How the data were processed

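The study's methods describe total RNA from pools of 3 mice, depleted of ribosomal RNA, trimmed with Trimmomatic 0.32 and mapped to GRCm38. The submitters' processing notes instead name Bowtie 0.12.2 and mm8. The methods call the libraries stranded while the labels name another kit, so reads of overlapping genes such as Ctu2 and Piezo1 may not be separated. The authors deposited FPKM per transcript. The study's methods place the counting of reads per gene in CLC Genomics Workbench 7.0.2 but do not mention FPKM, and whether it made these values is not given in the sources used here. The mRNA table was analysed, with 0 per-sample columns left out.

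Transcripts were joined to GENCODE release 21 (101539 of 102122 matched) and summed per gene. Depth was estimated from the smallest step of FPKM times length, at which 1 read pair per kb was worth 0.0237 to 0.0333 FPKM. Log2(FPKM + 0.1), which understates changes of low genes, entered limma 3.58.1 (R 4.3.3) in 1 linear model of the 3 groups over all 9 libraries, with moderation along a trend in the mean. Features averaging under 0.1 FPKM were left out. The scripts were tested on simulated data. With 3 pools against 3, an exact permutation test of a single value cannot go below p = 0.1, so none is given.

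Named were the 7 genes, each transcript with at least 10% of its gene sum or called on a day, and, from 5 related lists, the 2 genes with the highest mean and each called gene. Asic2-202 and the ratios were added after the values were seen. The genes whose levels ran most like those of Asic1 are not reported here. The members and lists were chosen with earlier results of these data known. Other steps used Python 3.11.15 (pandas 2.3.3, numpy 2.4.6, matplotlib 3.10.9). Alternatives were other pseudocounts, filters, scalings and cutoffs, fits of only the groups compared, the replicate number as a block, the most abundant transcript in place of the sum, and leaving out each library. Leaving out saline replicate 3 together with CFA6D replicate 6 was chosen after seeing the data.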

Additional observations from a re-analysis of the deposited data

Results flagged for a closer look

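For 6 related genes and 1 transcript, CFA6D and CFA3D differed from each other at an unadjusted p under 0.05 in limma, with no adjusted p under 0.05 (the lowest was 0.614 and the highest 0.918). On the log2 scale CFA6D was higher than CFA3D for Lrrc8a by 0.37, Dlg4 by 0.27, Tmem63b by 0.20, Scnn1a by 1.34 and the retained-intron transcript Asic3-204 by 0.41. The difference was -0.28 for Stoml2, a mitochondrial stomatin family protein, and -0.665 for Mdfic, an auxiliary protein of Piezo channels. Mdfic was at 5.63, 7.87 and 4.39 FPKM on CFA3D and 2.77, 4.24 and 4.02 on CFA6D, with all CFA6D libraries below all CFA3D libraries. Scnn1a was at 0.159 to 0.275 FPKM on CFA3D and 0.732 and 0.880 in CFA6D replicates 5 and 6, with replicate 4 also above the CFA3D libraries. Of the 6 genes, Dlg4 was the one that kept its call without each library in turn. Relative to the pan-neuronal markers Stoml2, Scnn1a and Mdfic kept their calls between the days, while Dlg4, Lrrc8a and Tmem63b lost theirs. Without CFA6D replicate 6 the difference of Lrrc8a was 0.23 (limma adjusted p = 0.833) and that of Tmem63b was 0.18 (adjusted p = 0.833), both with no call.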

How the results depend on the processing

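Of the 6 tested channel genes, 1 was called on CFA3D, 2 on CFA6D, 0 between CFA6D and CFA3D and 2 over both days. Relative to the pan-neuronal markers 0 were called on CFA3D, CFA6D and both days, and the transcripts called on CFA6D went from 6 to 2, namely Piezo2-211, which was among the 6, and Piezo2-209, which was not and was lower (-0.49, limma adjusted p = 0.512). On that scale the signs of Piezo2 (-0.0256) and Asic1 (-0.0105) turned on CFA3D, of Asic3 on CFA3D (-0.17), CFA6D (-0.0197) and both days (-0.10), and of Asic1 over both days (-0.0041). Of all genes, 587 rose and 130 fell at the cutoff on CFA3D, against 290 and 209 after quantile normalization and 21 and 886 relative to these markers. On CFA6D the splits were 1323 and 459, 992 and 986, and 157 and 2954. Where a 1-unit log2 difference was also required, 0 channel genes were called in the 3 comparisons with saline and 1 channel transcript on each day. At an adjusted p under 0.05 no channel gene or channel transcript was called. Quantile normalization and a fit of only the groups compared each called 1 channel gene, Piezo2, between CFA6D and CFA3D. Quantile normalization gave -0.0441 for Asic3 on CFA3D. A pseudocount of 0.01 gave 0.0269 for Asic4 on CFA6D.

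The replicate block, fitted on saline and CFA3D only, called 0 channel genes (Asic2 0.27, limma adjusted p = 0.999) and 1 channel transcript, Piezo2-211. The deviations of same-numbered libraries from their group means had correlations of 0.088, -0.078 and 0.030. Those of differently numbered libraries were -0.109 to 0.059. With 3 libraries per group these values cannot decide whether the numbers pair samples.

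Leaving out each library in turn gave 1 to 2 channel genes on CFA3D (Piezo1 added without CFA3D replicate 3) and 1 to 4 channel transcripts on CFA3D. It gave 0 to 1 channel genes between the days (Piezo2 without saline replicate 3). Over both days it gave 1 to 2 (Piezo2 lost without saline replicate 3). It gave 0.00069 to 0.50 for Piezo1 on CFA3D and 0.19 to 0.47 on CFA6D, 0.13 to 0.35 for Asic1 on CFA6D, -0.13 to 0.19 for Asic3 on CFA3D, 0.05 to 0.36 on CFA6D and -0.0401 to 0.27 over both days, -1.09 to 0.20, -0.48 to 0.80 and -0.79 to 0.50 for Asic4 on CFA3D, CFA6D and both days, and between the days -0.17 to 0.32 for Piezo1 and -0.0691 to 0.15 for Asic1. Without saline replicate 3 and CFA6D replicate 6 together, 2 channel genes were called between the days (Asic4 and Piezo2). Asic3 was then -0.13 on CFA3D and -0.0350 over both days. Asic4 was 0.20, 1.07 and 0.64 on CFA3D, CFA6D and both days, and Piezo1 -0.0316 between the days. The causes were not tested, except where fewer libraries or a stricter cutoff define the alternative. Low depth limits Asic4 and Stoml3.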
